A study of Mus musculus with 19 samples.

Results

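The genes described are those encoding the proteins of the mitochondrial ribosome under the names Mrpl (large subunit) and Mrps (small subunit). They were taken as every protein-coding gene whose symbol is Mrpl or Mrps followed by a number in GENCODE M21, which gave 78 genes, 49 Mrpl and 29 Mrps, of 35598 genes with transcripts in the files. All 78 were among the 15123 genes that passed the count filter and were tested. A further 5 symbols that begin the same way belong to pseudogenes and were not members. The cells were primary myoblasts from mouse hind-limb muscle, the precursors that fuse into multinucleate muscle fibres, in culture. They were sampled as dividing myoblasts after 24 h in growth medium, as differentiated myotubes at 48 h and as fused myotubes at 72 h. Libraries labelled WT numbered 3, 3 and 4 at these stages, and libraries labelled Glud1KO (named for a deficiency of glutamate dehydrogenase 1, the mitochondrial enzyme that turns glutamate into 2-oxoglutarate) numbered 3, 2 and 4. The allele behind the Glud1KO label and the strain, sex and age of the animals are not given in the sources used here. The replicates are called biological in the labels, which do not state if each came from its own animal or culture, so each p-value measures only the spread between these libraries.

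The mitochondrial ribosome sits in the mitochondrial matrix at the inner membrane and translates the few messenger RNAs encoded by mitochondrial DNA, all of which specify subunits of the respiratory chain and ATP synthase. Its RNA comes from the mitochondrial genome, while each of its proteins is encoded in the nucleus, made in the cytosol and imported. Many members keep the number of a bacterial ribosomal protein, and the higher numbers are mostly proteins that the mitochondrial particle gained. Muscle fibres build up oxidative capacity as they mature, which requires both genomes.

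The members lie on 17 chromosomes and have no common locus. Promoters of nuclear genes for mitochondrial proteins are known for sites of NRF1, of the ETS-family factor GABPA (also called NRF2) and of YY1, so the windows from 250 bases before to 50 after the gene start in RefSeq (GRCm38.p6) were searched on both strands. A window was found for 69 of the 78 members, and the first listed window of each gene was used. The ETS core CCGGAAG occurred in 25 of these 69 windows (36.2%), in 9.12% of all 27025 promoters and in 17.6% of the promoters of tested protein-coding genes. The NRF1 core GCATGCGC occurred in 8 windows (11.6%, against 2.8% and 5.33%), and the YY1 core AAGATGGCG in 8 windows (11.6%, against 1.49% and 3.09%). The TATA box TATAAA was found in 4 windows (5.8%, against 14.2% and 7.3%), and the E-box CACGTG in 5 (7.25%, against 7.24% and 10.1%). Such matches are letters in a window and say nothing of binding in these cells.

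The 120 bases before the annotated start are printed below, 5′ to 3′ on the strand of the gene, for a few members picked after their values were seen. A link between matches and the course of the RNA was not tested. Capitals mark a match to the ETS or NRF1 core on either strand. Mrpl43 was higher under the Glud1KO label in differentiated myotubes, a call that held in every alternative. So was Mrpl9, in a call lost in 4 of 15 alternatives, and Mrpl22 was higher in fused myotubes, in a call lost in 14 of 18. Mrps27 fell and rose again, and Mrps6 fell, did not rise again and has no match in this stretch. The matches of Mrpl9 on its 2 strands overlap.
Mrpl43 (chr19:45006443-45006562, minus strand): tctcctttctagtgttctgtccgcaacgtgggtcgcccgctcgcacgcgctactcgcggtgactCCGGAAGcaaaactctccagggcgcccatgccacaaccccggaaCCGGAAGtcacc
Mrpl22 (chr11:58171541-58171660, plus strand): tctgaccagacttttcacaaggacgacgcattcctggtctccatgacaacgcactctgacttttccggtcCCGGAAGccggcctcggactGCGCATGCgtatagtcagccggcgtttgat
Mrpl9 (chr3:94443198-94443317, plus strand): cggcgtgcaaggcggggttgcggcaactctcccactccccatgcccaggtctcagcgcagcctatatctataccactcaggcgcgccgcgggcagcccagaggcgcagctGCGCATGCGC
Mrps27 (chr13:99344666-99344785, plus strand): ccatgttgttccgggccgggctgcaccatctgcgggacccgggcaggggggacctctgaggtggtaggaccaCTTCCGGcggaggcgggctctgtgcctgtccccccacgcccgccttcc
Mrps6 (chr16:92058150-92058269, plus strand): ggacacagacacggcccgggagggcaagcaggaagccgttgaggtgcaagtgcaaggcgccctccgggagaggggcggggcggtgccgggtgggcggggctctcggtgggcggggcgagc

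Libraries held 16168131 to 30742634 estimated counts. Messenger RNA of Glud1 did not separate the labels in myoblasts, the stage given here. It was at 184 to 192 CPM in WT and 185 to 190 in Glud1KO-labelled myoblasts. CPM is a gene's count relative to the library's total, after scaling by TMM, the trimmed mean of M-values. File names mark libraries of either label as knockout, and the labels were followed as given at every stage. Muscle genes were present at every stage, with Myod1 at 284 CPM or more in every library and the embryonic myosin gene Myh3 at 12280 CPM or more in every myotube library. Summed CPM of the marker lists of other cells was at most 8.06 for fibroblasts (3 of 6 genes passed the filter), 1.25 for endothelium (1 of 5) and 6.64 for adipocytes (2 of 5), with Emcn at 0 CPM in every library and Lum at 0 in all but 1. The macrophage list (2 of 5) reached 15.5 to 18.5 CPM in WT and 24.3 to 28.0 in Glud1KO-labelled differentiated myotubes, nearly all of it Itgam, while Adgre1 did not exceed 0.247 CPM and Ptprc did not exceed 0.305.

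Per length, the members were moderately and unequally expressed. In WT myoblasts the group means ran from 15.1 TPM (the deposited value per effective length, scaled to the same total in every library) for Mrps30 to 290 for Mrpl52, with a median of 68.2. The median was 54.2 TPM in WT differentiated and 75.6 in WT fused myotubes. Mrps30, which despite its name sits in the large subunit, had the lowest level at every stage. Mrpl42, a protein of the large subunit, had the highest level in fused myotubes, at 501 ± 8.08 TPM (SD, n = 4) in WT and 535 ± 3.76 (SD, n = 4) under the Glud1KO label. Summed over the 78 members, the level was 6531 to 6752 TPM in WT myoblasts, 5379 to 5963 in WT differentiated myotubes and 7633 to 8021 in WT fused myotubes. The 3 ranges did not overlap, so that the summed level per length was lowest at 48 h and highest at 72 h. On the CPM scale, on which the tests were run, the sum was 2819 to 2949 in WT myoblasts and 2637 to 2839 in WT differentiated myotubes, which overlapped, and 4024 to 4247 in WT fused myotubes, above both. Exons of 33 members overlap exons of another gene, for 28 of them on the opposite strand and for 8 on the same one, and whether counting used strand is not given in the sources used here. In bulk RNA, fewer cells of a type and less RNA per cell cannot be told apart.

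**Figure D1:**
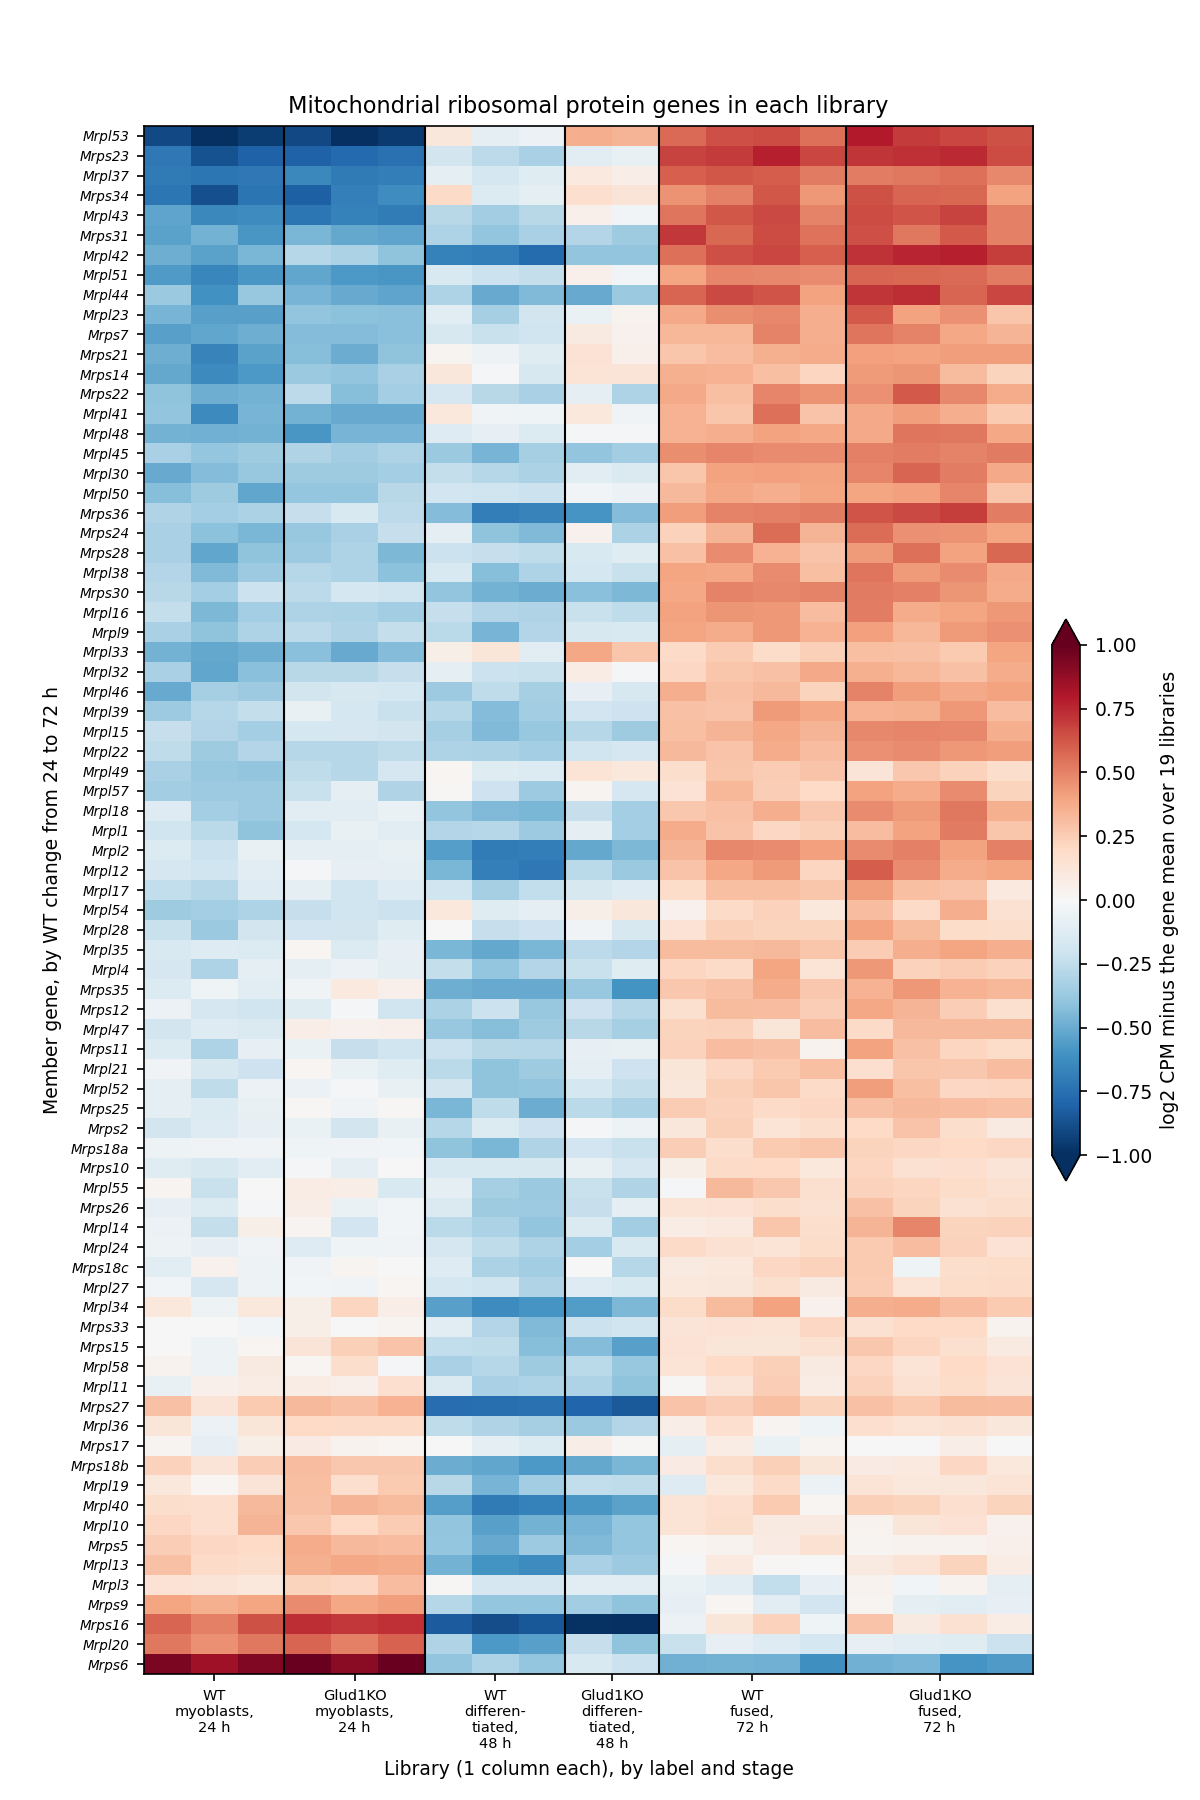
Level of each of the 78 members (rows) in each of the 19 libraries (columns), as log2 CPM minus the gene's mean over all libraries, with rows ordered by the WT change from 24 to 72 h. Most rows are lowest at 24 or 48 h and highest at 72 h, and Mrps6 at the bottom runs the other way.

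From myoblasts to differentiated myotubes in WT, the members divided. By edgeR's quasi-likelihood test with adjustment over all genes tested, 21 members were higher and 39 lower at 48 h, against 42.4% higher and 42.6% lower among all genes. Their median log2 fold change was -0.11 (all genes 0.019). The largest rise was that of Mrpl53, a large-subunit protein that mitochondrial ribosomes gained. The gene (chr6:83109040-83109939 in GRCm38, plus strand) stood at 26.6, 23.0 and 25.7 CPM in the 3 WT myoblast libraries and at 53.8, 46.4 and 47.6 in the 3 differentiated ones. This is a change of 0.97 ± 0.060 on the log2 scale (SE, edgeR adjusted p 2.42e-14). Mrps34 (0.76), Mrpl37 (0.58), Mrps14 (0.55) and Mrps23 (0.54) followed. The order depended on the setting: over the alternatives Mrpl53 ran from 0.71 to 1.08 and Mrps14 from 0.30 to 1.26. Exons of Mrpl53 overlap those of Gm42688 on the same strand and those of Ccdc142os on the opposite one. Those of Mrps34 overlap Nme3 on the same strand and Mapk8ip3 on the opposite one.

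The largest fall at this step was that of Mrps16, a small-subunit protein with a bacterial counterpart (chr14:20389304-20393634, minus strand). It went from 36.1, 34.3 and 37.5 CPM to 13.6, 13.02 and 13.4, and so changed by -1.43 ± 0.069 on the log2 scale (SE, edgeR adjusted p 6.24e-17). Most of the counts of Mrps16 were assigned to a noncoding transcript, as described below. Over the alternatives its change ran from -1.69 to -1.17. Mrps6, another conserved small-subunit protein (chr16:92058270-92112227, plus strand), fell from 64.9, 61.0 and 64.3 CPM to 25.8, 27.3 and 25.8 (-1.27). Mrps27, which carries pentatricopeptide repeats of the kind that bind RNA, fell by 0.99 on the log2 scale, Mrpl20 by 0.98 and Mrpl40 by 0.88. Of the proteins of the flexible stalk that recruits translation factors, Mrpl10 fell by 0.71 and Mrpl12 by 0.46. In none of these 7 did the libraries of the 2 stages overlap. The split depended on scaling. Without TMM, the median of all genes moved from 0.019 to -0.23, and 9 members were higher and 55 lower. Counting only transcripts annotated as protein coding gave 30 higher and 25 lower.

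From differentiated to fused myotubes in WT, nearly every member rose. Of the 78, 75 were higher at 72 h and 1 was lower, against 37.4% higher and 37.7% lower among all genes, and the median log2 fold change was 0.58 (all genes -0.011). Every alternative fit and every omission of a library gave between 71 and 75 members higher. Mrpl42 (chr10:95480805-95501940, minus strand) rose most, from 72.1, 71.1 and 67.5 CPM in the 3 differentiated libraries to 168, 180, 183 and 174 in the 4 fused ones. On the log2 scale it rose by 1.33 ± 0.040 (SE, edgeR adjusted p 7.27e-21). Mrps36 (1.08), Mrpl2 (1.07), Mrps27 (1.02) and Mrpl44 (0.98) came next. Mrps36 has since been assigned to the 2-oxoglutarate dehydrogenase complex, so its name does not place it in the ribosome, and Mrpl44 has the fold of an RNase III enzyme.

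All 16 members listed for particular roles rose at this step. Among them were the stalk proteins Mrpl12 (0.95 on the log2 scale) and Mrpl10 (0.59), Mrpl45 (0.86), which helps to hold the ribosome at the inner membrane, Mrps12 (0.56) of the decoding centre, and Mrpl58 (0.48), which has peptidyl-tRNA hydrolase activity and releases stalled chains. The paralogs Mrps18a, Mrps18b and Mrps18c, of which Mrps18a belongs to the large subunit, rose by 0.63, 0.68 and 0.43. Mrps30 (0.92), Mrpl18 (0.73), Mrps7 (0.57), Mrpl41 (0.36) and Mrpl33 (0.19) also rose, and the call of Mrpl33 was lost after a trend with gene length and GC content was removed. Exceptions were few. Mrps6 was lower (fell by 0.15), and this call rested on WT fused replicate 4, at 22.1 CPM against 24.2 to 24.4 in the other fused libraries, without which the adjusted p was 0.0532. Mrpl3 and Mrps17 were not called, with log2 fold changes near 0.

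**Figure D2:**
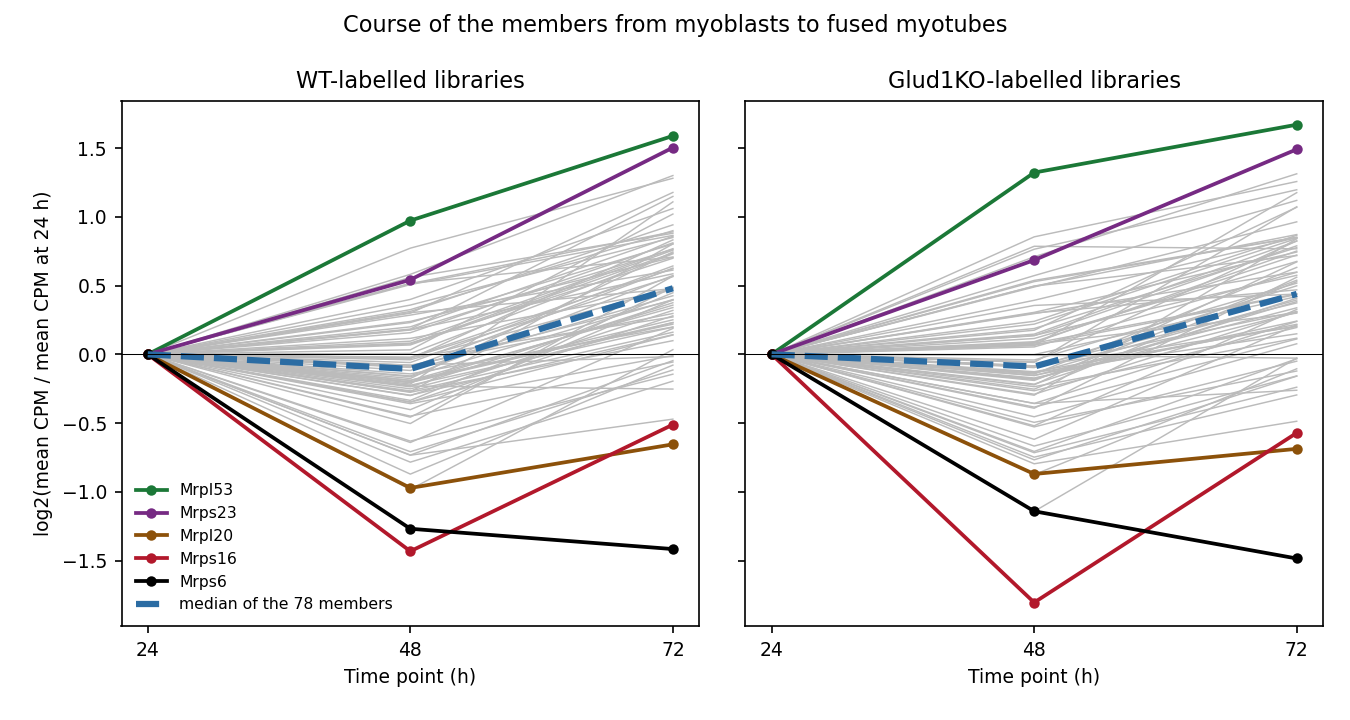
Mean CPM of each member at 24, 48 and 72 h relative to its own mean at 24 h (log2), for the WT-labelled (left) and Glud1KO-labelled libraries (right). Grey lines are members, coloured lines are the 5 named ones and the dashed line is their median, which dips at 48 h and ends above its start under both labels.

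Combining both steps in WT, 21 members were higher at each step, 37 were lower at 48 h and then higher, and 17 were called only at the second step, all upward. Of all genes tested, 16.9% were higher at each step, 14.5% lower and then higher, and 5.99% called only at the second step and higher. Mrps6 alone of the members was lower at each (16.2% of all genes). Between 24 and 72 h, 63 members were higher and 8 lower (42.2% and 43.4% of all genes), with a median of 0.48. Mrpl53 ended at 73.7, 77.6, 78.1 and 72.8 CPM, which was 2.99-fold its level in myoblasts, and Mrps23 (chr11:88204388-88211507, plus strand) at 121, 123, 130 and 120 CPM, up from 46.0, 41.3 and 43.2 (2.83-fold). Mrps6 ended at 22.1 to 24.4 CPM, with a change of -1.42 ± 0.046 on the log2 scale (SE, edgeR adjusted p 4.61e-21). Exons of Mrps6 overlap those of Slc5a3, a transporter of myo-inositol, on the same strand, where short reads can be shared. Mrpl20 (-0.66), Mrps16 (-0.52), Mrps9 (-0.48) and Mrpl3 (-0.25) also ended lower. Mrps9 stayed lower in every alternative, whereas Mrpl3 was higher by 0.51 when only protein-coding transcripts were counted. Under that setting Mrps16 was at 0.027. Without TMM the median of all genes over this span moved from -0.013 to -0.33, and 42 members were higher and 19 lower. Removing the trend with length and GC content gave 48 and 18. Members are short (median 916 nt, all tested genes 2317 nt).

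The 37 members that dipped did not all recover to the same point. Relative to 24 h, 25 of them ended higher, 6 lower and 6 were not called. Mrps27 (chr13:99344786-99415562, plus strand) returned to its start on the TMM scale (by library size only its change from 24 to 72 h was -0.29), from 54.0, 48.2 and 53.0 CPM through 26.0, 26.2 and 26.3 to 53.7, 52.2, 54.4 and 51.6 CPM. The low values at 48 h lay far from both other stages, which overlapped each other. Mrpl12, which helps to recruit translation factors at the stalk, overshot its start, from 120, 117 and 125 CPM through 98.03, 83.8 and 81.7 to 164, 176, 180 and 156 CPM. Mrpl40 went from 34.9, 34.7 and 38.7 CPM through 21.01, 18.9 and 19.3 to 31.3 to 37.0, where it overlapped its start. Mrps16 recovered in part, to 23.2, 26.2, 28.2 and 23.4 CPM, all below its 3 myoblast libraries. Of the 37, Mrpl20 fell by 0.98 and regained little, rising by 0.32 on the log2 scale.

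The 21 members that rose at each step included Mrps34, Mrps31, Mrps23, Mrps22 and Mrps28 of the small subunit and Mrpl53, Mrpl37, Mrpl43, Mrpl51, Mrpl48 and Mrpl50 of the large one, all of the higher numbers. Mrpl37 (chr4:107055874-107066868, minus strand) was at 47.6, 47.2 and 47.3 CPM at 24 h, 72.5, 68.7 and 71.3 at 48 h and 118, 119, 118 and 111 at 72 h. Its 3 stages were far apart and the libraries within a stage close together. Mrpl43 (chr19:45004829-45006442, minus strand) went from 32.4, 29.8 and 30.3 CPM to 38.6, 36.7 and 38.5 and then to 67.5, 71.8, 73.8 and 65.8, with most of its rise at the second step. Its exons overlap those of Twnk, the helicase of mitochondrial DNA, on the opposite strand. Members with bacterial numbers in this class were Mrps7, Mrps14, Mrps21, Mrpl23, Mrpl30, Mrpl32 and Mrpl33. Mrpl44, called at the second step alone, stayed at 18.9 to 22.3 CPM at 24 h and 20.3 to 23.3 at 48 h and then reached 38.1 to 45.4. Mrps17 kept within 46.2 to 53.6 CPM over all 10 WT libraries, and its stages overlapped throughout.

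The higher-numbered members, mostly those without a bacterial counterpart, had a higher median change than the conserved ones. Of 21 higher-numbered Mrpl genes (above 36), 20 rose between 24 and 72 h and Mrpl40 was not called, with a median of 0.75. Of 28 with bacterial numbers, 21 rose and 4 fell (median 0.46). Among Mrps genes, 12 of the 13 numbered above 21 rose and Mrps27 was not called (median 0.75), whereas of 16 with bacterial numbers 10 rose and 4 fell (median 0.23). Of all genes tested, 42.2% rose and 43.4% fell over this span. These are descriptions, and the classes were not tested against each other.

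Other parts of the machinery also rose at the second step. Of all genes tested, 37.4% were higher and 37.7% lower at this step. All 5 mitoribosomal proteins tested under other symbols rose from 48 to 72 h, among them Dap3 (0.63) and Ptcd3 (0.62) of the small subunit. So did Oxa1l (0.98), listed with them, which is not a ribosomal protein but the insertase of the inner membrane that receives nascent chains. Of 12 translation factors tested, 10 rose and 1 fell, with Tufm (the elongation factor that delivers tRNA) up by 1.02 and Gfm1 (the translocase) by 0.82. Of 27 assembly factors 22 rose and 2 fell, of 17 mitochondrial aminoacyl-tRNA synthetases 12 rose and 1 fell, and of 15 factors for mitochondrial mRNA stability and translational activation all 15 rose. At the first step 11 assembly factors were higher and 11 lower, and 4 synthetases were higher and 11 lower, where 42.4% of all genes were higher and 42.6% lower. For all genes tested the medians were 0.019 and -0.011 at the 2 steps.

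The messenger RNAs encoded by mitochondrial DNA followed another course. All 13 rose from 24 to 48 h, with a median log2 fold change of 1.57, at the step at which 39 of the nuclear members fell. After removal of the length and GC trend 11 rose and 1 fell. From 48 to 72 h, 11 fell and mt-Nd3 alone rose (0.32), with a median of -0.45. Their share of all TPM was 3.5% to 4.26% in WT myoblasts, 9.71% to 11.7% in WT differentiated and 7.01% to 8.17% in WT fused myotubes. Between 9 and 12 of them fell at the second step in every alternative fit. The shares of all genes higher and lower were 42.4% and 42.6% at the first step, and 37.4% and 37.7% at the second. Genes of the cytosolic ribosome were also counted. Of 83 tested, 81 fell and 1 rose from 24 to 48 h (median -0.75), and from 48 to 72 h 19 rose and 17 fell (median 0.0070). The second of these splits became 4 higher and 64 lower once the length and GC trend was removed, a setting under which 72 mitoribosomal members still rose. The TruSeq mRNA kit selects polyadenylated RNA, and mitochondrial ribosomal RNA was not used here.

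**Figure D3:**
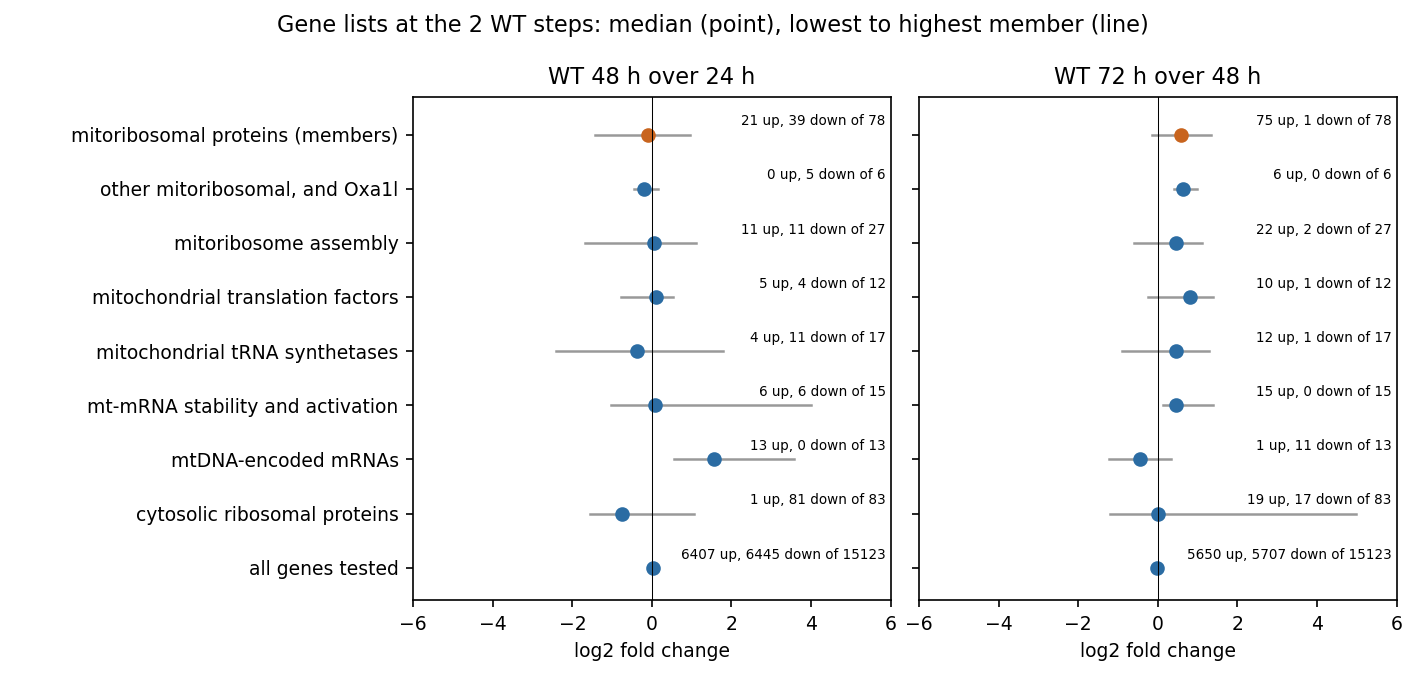
Log2 fold change of gene lists at the 2 WT steps, with the median of each list as a point, the range from its lowest to its highest gene as a line, and the number of genes called in each direction. Medians of the members and their partner lists lie right of 0 at the second step, mitochondrially encoded mRNAs right of 0 at the first and left of it at the second.

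Of 10 regulators tested, 3 rose and 7 fell at the first step, and 2 rose and 1 fell at the second, where the shares of all genes were 42.4% and 42.6%, and 37.4% and 37.7%. Ppargc1a, the coactivator that drives mitochondrial biogenesis, rose by 1.59 at the first and 1.44 at the second step, and its partner receptor Esrra by 0.10 and 1.33. Nrf1 fell by 0.65 at the first step and was not called at the second (0.080). Gabpa fell by 0.24 and was then not called (0.028). Myc, which drives ribosome production in dividing cells, fell by 3.29 at the first step. Of the members whose window held an ETS match, 24 of 25 rose at the second step (median 0.57). So did 8 of 8 with an NRF1 match (median 0.62) and 8 of 8 with a YY1 match (median 0.70), against 75 of all 78 (median 0.58).

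**Figure D4:**
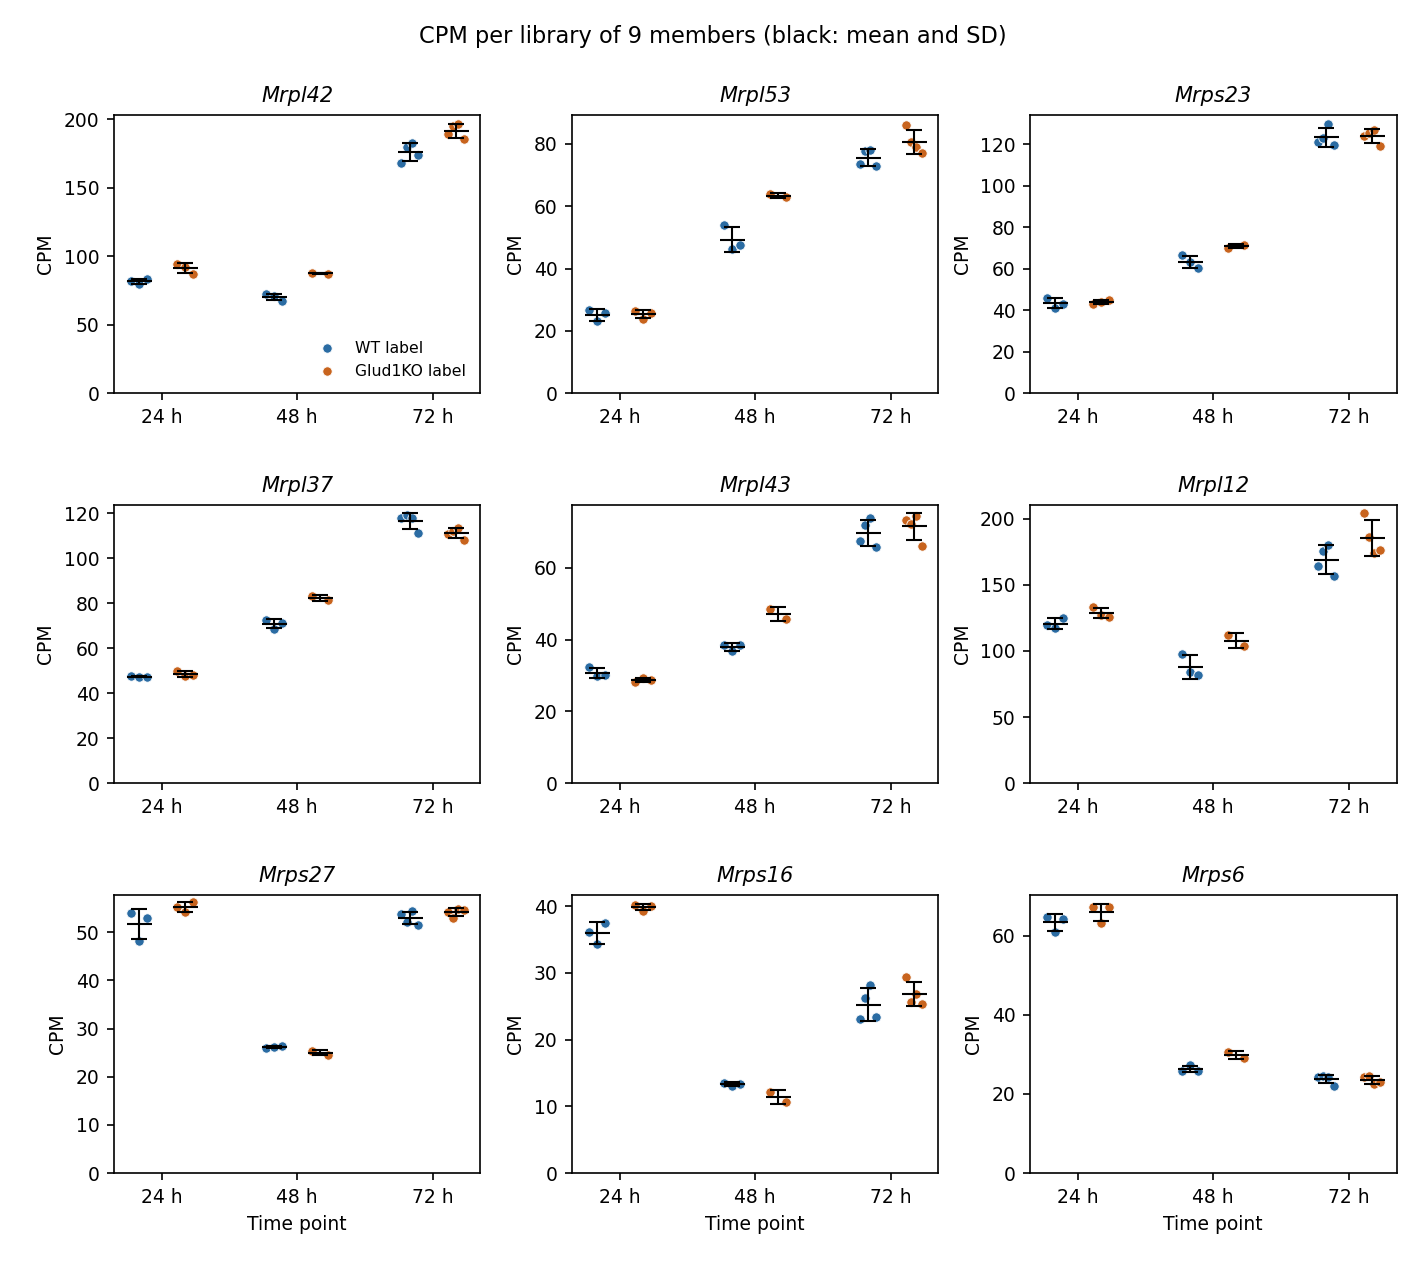
CPM of 9 members in each library at 24, 48 and 72 h for the WT (blue) and Glud1KO (orange) labels, with the mean and SD in black and the axis from 0. At 48 h, Mrpl42, Mrpl53, Mrps23, Mrpl37, Mrpl43, Mrpl12 and Mrps6 are higher under the Glud1KO label without overlap. Mrps27 and Mrps16 are lower there without overlap, though not called. Mrps6 ends far below its level at 24 h under both labels.

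In the Glud1KO-labelled libraries the members were also higher at the last stage. Mean CPM was higher at 72 than at 48 h in 75 of 78 members (76 under the WT label), with a median fold of 1.41 (WT 1.49). Mrps6 was again among the exceptions, at 30.5 and 29.2 CPM at 48 h and 22.5 to 24.5 at 72 h, together with Mrps17 and Mrpl33. Summed TPM was 6928 to 7067, 5509 to 5881 and 7957 to 8302 at the 3 stages.

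Between labels, more members were called in differentiated myotubes than at the other stages. Here 22 members were higher under the Glud1KO label and 0 lower (11.0% and 14.1% of all genes by edgeR), with 2 lower at an unadjusted p under 0.05 and 0 called lower by DESeq2. The median log2 fold change was 0.12 (all genes -0.012), and it was 0.060 by library size only and 0.035 with the length and GC trend removed. Mrpl53 was at 63.9 and 62.9 CPM against 53.8, 46.4 and 47.6 in WT, higher by 0.37 ± 0.063 on the log2 scale (SE, edgeR adjusted p 7.99e-05). Mrpl42 was at 87.6 and 87.3 CPM against 72.1, 71.1 and 67.5 (0.32 ± 0.048, SE, edgeR adjusted p 1.56e-05). Mrpl33 (0.31), Mrpl43 (0.31) and Mrpl12 (0.30) came next, and Mrps7, which contacts the small-subunit RNA in bacteria, was up by 0.26. Of the 16 members listed for particular roles, Mrpl33, Mrpl12, Mrps7 and Mrps18a were called here, and Mrpl18 alone at each of the other stages. In each of the 6 above, both Glud1KO-labelled libraries lay above the 3 WT ones. The 22 also include Mrps6 (0.18), which differed from the rest in its course. Mrps16, at 12.1 and 10.6 CPM against 13.6, 13.02 and 13.4 in WT, was lower without overlap but not called.

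The number called in differentiated myotubes was unstable. It was 7 without Glud1KO replicate 1, 13 without Glud1KO replicate 2 and 13 without WT replicate 3, where a lone Glud1KO library is assumed to vary like the other groups. Scaling by library size gave 8 higher and 2 lower, and on the TPM scale the summed level of the 2 labels overlapped (5379 to 5963 in WT, 5509 to 5881 under the Glud1KO label). On the CPM scale the sums were 2637 to 2839 and 2929 to 3007 and did not overlap. The calls of Mrpl33, Mrpl37, Mrpl42, Mrpl43, Mrpl53 and Mrps7 held under all 15 alternatives with a value. Several other measures moved with the label at this stage. Mitochondrially encoded mRNAs were higher (12 of 13, median 0.48) and took 13.1% and 14.2% of TPM, against 9.71% to 11.7% in WT. Of the 9 muscle stage markers, 1 was higher and 4 were lower (median -0.015). Of all genes tested, 11.0% were higher and 14.1% lower. Mki67, a gene of dividing cells, was at 0.588 and 0.996 CPM against 4.09 to 5.07, Pax7 of muscle stem cells at 5.08 and 6.19 against 10.2 to 11.3, and Mymk, needed for fusion, at 1999 and 2229 against 1660 to 1828. Myod1, which in WT rose from 24 to 48 h, was at 645 and 668 against 770 to 870, and Myf5, which fell, at 55.2 and 55.1 against 58.5 to 67.8. Myog, Myh3, Des and Ckm were not called. Their part in the result was not tested.

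In myoblasts, 7 members were higher under the Glud1KO label and 0 lower (4.86% and 6.69% of all genes by edgeR), with 0 lower also at an unadjusted p under 0.05 and by DESeq2. The median was 0.078 (all genes 0.014). They were Mrpl46 (0.23), Mrps15 (0.23), Mrps14 (0.21), Mrpl47 (0.21), Mrpl18 (0.18), Mrpl42 (0.16) and Mrpl13 (0.15). Mrps15 was at 29.3, 31.7 and 32.7 CPM against 26.8, 25.9 and 27.1, and its call held in every alternative. The count was 3 without WT replicate 2 or without Glud1KO replicate 1, 4 without replicate 3 of either label, and 1 with an offset for effective length. Mrpl46 shares exons on opposite strands with Mrps11. Mitochondrially encoded mRNAs, higher under the label in differentiated myotubes, were not so here. They took 3.28% to 3.56% of TPM under the label, against 3.5% to 4.26% in WT. Of 9 muscle stage markers, 5 were lower under the label at this stage by edgeR (median -0.33). Myog, a regulator of differentiation, was at 64.6, 73.5 and 82.5 CPM against 118, 104 and 119 in WT, and Myh3 at 112 to 120 against 210 to 234. Mymk, Des and Ckm were the other 3, while Mki67 and Pax7 were not called. Their part in the result was not tested.

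In fused myotubes, 6 members were higher and 0 lower (6.32% and 6.72% of all genes by edgeR), with 1 lower at an unadjusted p under 0.05 and 0 called lower by DESeq2. The median was 0.059 (all genes -0.0063), and 0.023 with the length and GC trend removed. These 6, Mrpl18, Mrpl42, Mrpl22, Mrpl30, Mrpl15 and Mrpl51, changed by 0.15 or less, and the share called was near that of all genes. The count was 0 without WT replicate 1 or Glud1KO replicate 3, 1 without WT replicate 4 or Glud1KO replicate 1 or 2, and 3 without WT replicate 2. Mrpl42 was the only member called at all 3 stages. At 72 h it was at 189, 195, 196 and 186 CPM against 168, 180, 183 and 174 (0.12 ± 0.034, SE, edgeR adjusted p 0.015, up to 0.0749 over its alternatives).

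**Figure D5:**
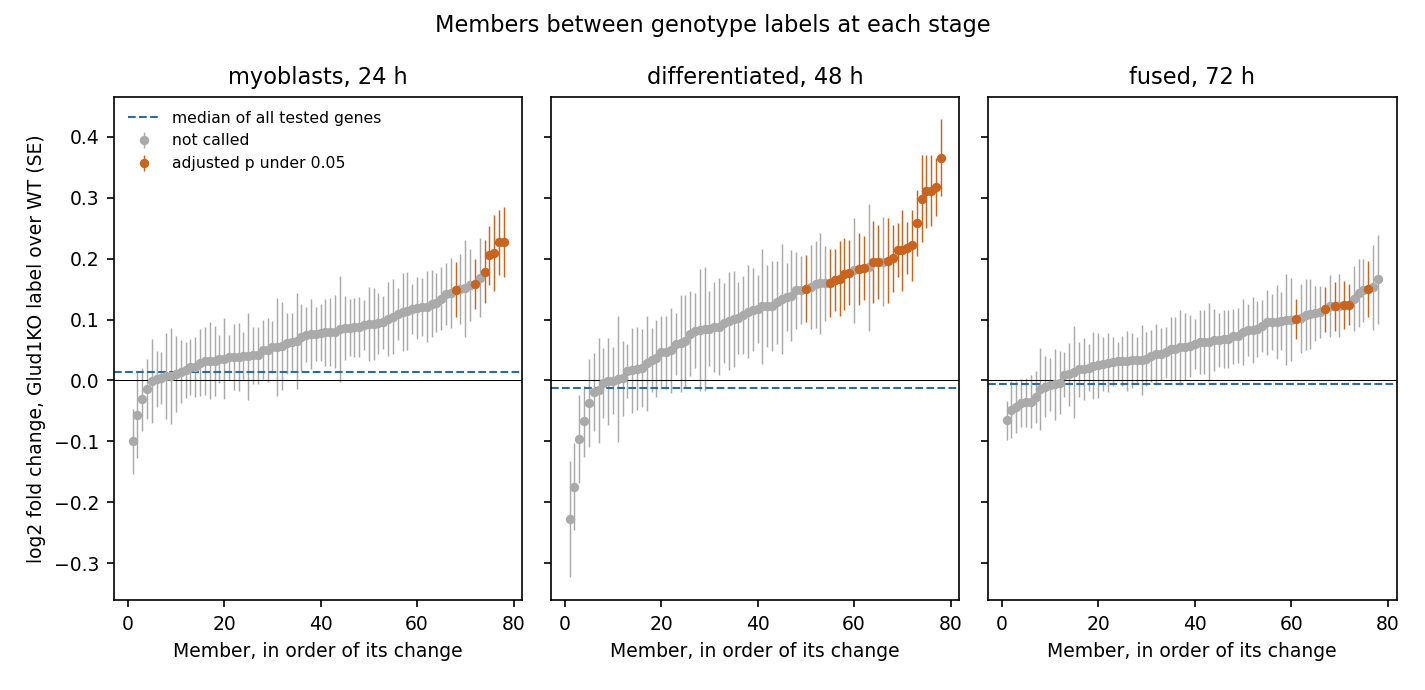
Log2 fold change of the Glud1KO label over WT for each member (point, with SE), in order of size, at each stage. Orange points passed the test, 7 at 24 h, 22 at 48 h and 6 at 72 h, all above 0, and the dashed line is the median of all tested genes.

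Whether the label effect itself changed between stages was tested with interaction terms. Between myoblasts and differentiated myotubes it differed in 7 members (19.1% of all genes), upward in 5 and downward in 2. This split was 2 and 5 with the length and GC trend removed, and 2 and 3 by library size only. Mrpl43 was at 28.3, 29.3 and 28.8 CPM against 32.4, 29.8 and 30.3 in WT at 24 h, and at 48.5 and 45.7 against 38.6, 36.7 and 38.5 at 48 h, so that the effect changed by 0.41 ± 0.080 (SE, edgeR adjusted p 0.000494). Mrpl53 changed by 0.36. Mrps15 went the other way (-0.40 ± 0.090, SE, edgeR adjusted p 0.00195), being higher under the label at 24 h and at 19.8 and 18.4 against 22.6, 22.4 and 20.0 CPM at 48 h. Without Glud1KO differentiated replicate 1 the count was 4.

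Between differentiated and fused myotubes the effect differed in 6 members (14.8% of all genes), each lower at 72 h. By library size only, it was higher in 2 and lower in 1, and with the trend removed higher in 2 and lower in 5. The 6 were Mrpl37 (-0.28 ± 0.053, SE, edgeR adjusted p 0.000481), Mrpl53 (-0.27), Mrpl43 (-0.27), Mrpl49 (-0.24), Mrps18a (-0.21) and Mrpl42 (-0.19). Mrpl37 was at 83.3 and 81.5 CPM against 72.5, 68.7 and 71.3 at 48 h, and at 108 to 114 against 111 to 119 at 72 h, where the labels overlapped. The count was 11 without WT differentiated replicate 1 and 1 without Glud1KO differentiated replicate 1. Both interactions share the differentiated libraries. Between myoblasts and fused myotubes 0 members differed by edgeR (10.3% of all genes), 5 at an unadjusted p under 0.05, and 0 by DESeq2. The smallest adjusted p there was 0.0925 (Mrps5, -0.15), followed by 0.0959 (Mrpl49, -0.17) and 0.147 (Mrps15, -0.17).

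The files also divide each gene among its transcripts. The members have 343 transcripts, of which 147 held 10% or more of their gene's counts in some group. Transcripts annotated as protein coding held 81.4% to 81.9% of all member counts in WT myoblasts, 81.5% to 82.2% in differentiated and 84.3% to 84.5% in fused myotubes. Retained-intron transcripts held 5.02% ± 0.077 (SD, n = 3), 6.37% ± 0.40 (SD, n = 3) and 4.29% ± 0.062 (SD, n = 4). In WT the leading transcript differed between myoblasts and fused myotubes in 5 members (Mrpl14, Mrpl17, Mrps10, Mrps17 and Mrps25). In Mrpl14 the noncoding transcript ENSMUST00000148537 (510 nt) led in myoblasts with a mean of 52.0%, while in differentiated and fused myotubes the coding ENSMUST00000024734 (645 nt) led with 65.4% and 61.0%. Most of the counts of Mrps16 went to the noncoding transcript ENSMUST00000224286 (91.5%, 90.3% and 87.8% in WT at the 3 stages), and those of Mrpl3 to a transcript annotated for nonsense-mediated decay (66.4%, 59.3% and 58.3%). Such shares are the quantifier's estimates and were not tested.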

How the data were processed

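RNA of 19 libraries was extracted with an RNeasy plus micro kit and sequenced from TruSeq mRNA libraries, per the labels' protocols. The deposited files hold, for each transcript and library, an estimated count, an effective length and a TPM value that the authors scaled by effective length and library. Their columns have the layout of kallisto, per the file headers. The submitters' processing notes list bcl2fastq 2.20, fastp 0.20.0, kallisto 0.46.1, edgeR 3.36 and GRCm38.p6, without roles. The strand setting is not given in the sources used here.

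Of 121843 transcripts, 121018 matched GENCODE M21 by identifier, and the other 825 made up 0.255% to 0.507% of a library's total. The estimated counts deposited by the authors were summed to 35598 genes and rounded to whole numbers. The main test was edgeR 4.0.16 (R 4.3.3), with 1 coefficient per group over all 19 libraries, filterByExpr, TMM scaling, the quasi-likelihood F-test and Benjamini-Hochberg adjustment over 15123 genes. Calls use an adjusted p below 0.05 throughout. Comparisons numbered 9, with 3 between labels, 3 between WT stages and 3 interactions. DESeq2 1.42.0 and other scalings, filters and offsets served as alternatives.

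Members and lists were chosen with earlier results of these data known. For each comparison the text names up to 5 called members that rose most and up to 5 that fell most, where the groups did not overlap, and the 3 smallest p of each interaction. A list of 16 members with particular roles is given by value for the step from 48 to 72 h in WT, and those called between labels are named. Members named beyond these were chosen after their values were seen. Groups followed the labels, although file names mark libraries of either label as knockout. Promoter sequences are from RefSeq. No member was left out.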

Additional observations from a re-analysis of the deposited data

Results flagged for a closer look

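For the 46 members that the naming rule picked or that were called between labels or in an interaction, 92 groups of 4 fused libraries were examined for a library set apart from the other 3 (Dixon's ratio above its 95% critical value), and 8 had one. Chance gives about 1 in 20. In WT fused myotubes, replicate 1 stood apart for Mrpl30 (78.86 CPM) and Mrps30 (42.83 CPM), replicate 3 for Mrps7 (99.1 CPM), and replicate 4 for Mrpl35 (37.79 CPM) and Mrps6 (22.13 CPM). In Glud1KO-labelled fused myotubes, replicate 1 stood apart for Mrpl47 (35.13 CPM) and Mrps9 (33.06 CPM), and replicate 4 for Mrpl15 (85.85 CPM).

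The effect of the label (Glud1KO over WT, log2) changed between stages, by the interaction test of edgeR at an adjusted p under 0.05, in 13 instances. Of all genes tested, 19.1% changed between myoblasts and differentiated myotubes and 14.8% between differentiated and fused myotubes. From myoblasts to differentiated myotubes the change was 0.41 for Mrpl43, 0.36 for Mrpl53, 0.27 for Mrpl33, 0.18 for Mrpl37, 0.17 for Mrpl51, -0.37 for Mrps16 and -0.40 for Mrps15. From differentiated to fused myotubes it was -0.28 for Mrpl37, -0.27 for Mrpl53, -0.27 for Mrpl43, -0.24 for Mrpl49, -0.21 for Mrps18a and -0.19 for Mrpl42. Over the alternatives, the calls of Mrpl43 and Mrps15 in the first set and of Mrpl37 in the second held in all. In the first set, of 21 alternatives, Mrpl51 was lost in 12, Mrpl37 in 9, Mrpl33 in 5, Mrps16 in 3 and Mrpl53 in 1. Beyond those 12, Mrpl51 changed sign with protein-coding transcripts only (-0.047). In the second, of 23, Mrps18a was lost in 9, Mrpl42 in 7, Mrpl53 in 6, Mrpl49 in 4 and Mrpl43 in 3. Both sets rest on the same 2 Glud1KO-labelled and 3 WT differentiated libraries.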

How the results depend on the processing

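The rise of members from WT differentiated to fused myotubes was within 71 to 75 in every alternative. Counts that moved by over 1.5 times are as follows, and the cause was not tested. Members higher under the Glud1KO label in myoblasts (7) numbered 1 with the effective-length offset and 4 with protein-coding transcripts only, and 3 to 7 with 1 library left out. In differentiated myotubes (22) they numbered 8 by library size only, 11 with the effective-length offset, 14 with the length and GC trend removed, 11 with only the groups compared, and 7 to 31 with 1 library left out, while members lower (0) numbered 2 by library size only, 2 with the trend removed, and 0 to 1. In fused myotubes (6) they numbered 3 without a filter, 3 with a replicate block, 0 with the effective-length offset, 2 with the trend removed, 1 with protein-coding transcripts only, and 0 to 7. In WT, 9 members were higher at 48 than 24 h by library size only (20 to 23 with a library left out), 25 were lower with protein-coding transcripts only (34 to 40), 3 were lower at 72 than 48 h with the trend removed (0 to 1), and 19, 18 and 5 were lower at 72 than 24 h by library size only, with the trend removed and with protein-coding transcripts only (7 to 10). Interactions numbered 3 and 4 (from 7; effective-length offset, protein-coding transcripts; 4 to 8), 3 (2 higher, 1 lower) and 2 (from 6, all lower; library size, effective-length offset; 1 to 11), and 2 (from 0; trend removed).

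Signs reversed for 11 named values. From 24 to 72 h in WT, by library size only, Mrpl58 was at -0.19, Mrps18a at -0.038, Mrps18c at -0.12 and Mrps27 at -0.29. With the trend removed, Mrpl58 was at -0.30, Mrps12 at -0.055 and Mrps18a at -0.012. With protein-coding transcripts only, Mrpl3 was at 0.51 and Mrps16 at 0.027. From 24 to 48 h, Mrpl44 was at -0.23 (library size), Mrpl45 at 0.087 (protein-coding transcripts) and Mrps30 at 0.082 (trend removed), and Mrpl51 had an interaction of -0.047 (protein-coding transcripts).

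Same-numbered libraries of the 2 labels at a stage correlated by -0.068 to 0.078 in their deviations from the group means. Other pairs correlated by -0.127 to 0.114. Libraries of different stages were not compared, so these values cannot decide whether libraries share an animal or culture. The replicate block moved the fused count above and no other count by over 1.5 times. Omitting a Glud1KO-labelled differentiated library leaves 1, assumed to vary like the other groups.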
